A study of Mus musculus with 16 samples.

Results

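The miR-199 and miR-214 family of microRNAs (miRNAs, short RNAs that lower the output of matching messenger RNAs) was followed in whole mouse lung during ovalbumin (OVA)-driven allergic airways disease. The members were the mouse miRNAs whose name on the array was miR-199a, miR-199b or miR-214, with either arm of the precursor. They were 5 of the 611 mouse miRNAs on the array, namely miR-199a-3p, miR-199a-5p, miR-199b-5p, miR-214-3p and miR-214-5p. Total RNA of whole lungs of BALB/c mice aged 8 to 12 weeks had been hybridised to 16 single-colour arrays on 2 slides, in 4 groups. Mice of the OVA/OVA group (6 arrays) were sensitised on day 0 by an intraperitoneal injection of 50 μg OVA with 1 mg of the adjuvant Alhydrogel and received 10 μg OVA into the nose from day 12 to day 15. Mice of the OVA/OVA DEX group (4 arrays) had the same treatment and also the glucocorticoid dexamethasone at 3 mg/kg, begun on day 11. Mice of the PBS/OVA group (4 arrays) received 1 mg Alhydrogel with no OVA at sensitisation and were challenged with 10 μg OVA. Mice of the PBS/PBS group (2 arrays) were labelled as given PBS for both steps, and the methods give 1 mg Alhydrogel alone to mice that were not sensitised. All lungs were collected 24 hours after the last challenge. The labels number the replicates but do not say that each came from a separate animal, so p-values measure the spread between these arrays.

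In mammals, miR-199a and miR-214 are cut from a long non-coding transcript, Dnm3os, which runs opposite to an intron of the dynamin gene Dnm3. They are best known from mesenchymal cells such as fibroblasts and smooth muscle cells, and in lung they have been linked to fibroblast activation and to scarring. The cell type that carried them was not measured here. In whole-lung RNA, fewer cells of a type, more RNA from other cells and less of the miRNA per cell cannot be told apart.

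The mature sequences are shown because they set which members the array can separate and which share a seed, the stretch that pairs with targets. They come from RefSeq on build GRCm38.p6, which held an entry for 4 of the 5 members. Capitals mark the seed, bases 2 to 8 from the 5′ end.
miR-199a-3p: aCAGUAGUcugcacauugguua
miR-199a-5p: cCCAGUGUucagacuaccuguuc
miR-214-3p: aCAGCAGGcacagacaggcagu
miR-214-5p: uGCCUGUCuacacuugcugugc
The hairpins Mir199a-1, Mir199a-2 and Mir199b all held the sequence of miR-199a-3p, so its signal could come from all 3 hairpins. The seeds of miR-199a-3p and miR-214-3p matched at 5 of 7 bases. The seed of miR-214-3p was also that of miR-761, which was on the array and was detected on 0 of the 16 arrays. miR-199b-5p was the member with no mature entry in the RefSeq table used here. The closest stretch of the Mir199b hairpin, bases 26 to 48, is set against miR-199a-5p to show how near the 5p arms are, with capitals at the base that differed.
miR-199a-5p: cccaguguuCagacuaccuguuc
Mir199b hairpin: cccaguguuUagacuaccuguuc
The stretch had the seed of miR-199a-5p and differed from it by C10U alone, counted from the 5′ end, in 23 bases. A probe signal named for one of the 5p arms may therefore hold some of the other, and the share was not measured.

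The hairpins lay within or opposite dynamin genes. Mir199a-2 (chr1:162217814-162217923, plus strand) and Mir214 (chr1:162223368-162223477, plus strand) were 5444 bases apart, and both lay within the bounds of Dnm3 and Dnm3os. Mir199a-1 (chr9:21496495-21496564, minus strand) lay within the bounds of Dnm2. Mir199b (chr2:32318460-32318569, plus strand) lay within those of Dnm1.

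Of the 5 members, 4 were detected on all 16 arrays and were tested among 266 miRNAs, those with a detected signal on all arrays of some group. All 320 spot readings of each of these 4 miRNAs were well above background and none was saturated. miR-214-5p, the opposite arm of the miR-214 precursor, was different. It was detected on 2 of 16 arrays, at a log2 signal of 1.47 on PBS/PBS array 1 and 3.69 on OVA/OVA array 4, with 3 of 320 spot readings well above background. It was not tested, and no difference between groups can be given for it at this signal.

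Array brightness differed between groups before scaling. In OVA/OVA the summed signal lay between 251350 and 733489, with arrays 6 and 3 of that group the dimmest of all. It lay between 499733 and 638811 in OVA/OVA DEX, between 493063 and 718149 in PBS/OVA, and at 793227 and 940050 on the PBS/PBS arrays. Each array was scaled to the 75th percentile of the 206 miRNAs detected on all arrays, and levels below are log2 of that scaled signal. They compare groups within a miRNA and not 1 miRNA with another.

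miR-199a-3p, which is known to act on the kinase mTOR, gave the smallest spread. Its log2 signal was 12.15 and 12.06 in PBS/PBS and 12.07, 12.18, 12.23 and 12.13 in PBS/OVA. The OVA/OVA arrays ran from 11.82 through a median of 11.86 to 12.09, and the OVA/OVA DEX arrays were 12.29, 12.28, 12.06 and 12.07. Of the 6 OVA/OVA arrays, 5 lay below every array of OVA/OVA DEX, and array 5 was the exception. Group means were 12.10 ± 0.0651 (SD, n = 2) in PBS/PBS, 12.15 ± 0.0681 (n = 4) in PBS/OVA, 11.90 ± 0.104 (n = 6) in OVA/OVA and 12.18 ± 0.125 (n = 4) in OVA/OVA DEX.

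miR-199a-5p, which has been linked to caveolin-1 in lung fibroblasts, had log2 signals of 8.89 and 8.93 in PBS/PBS and of 8.85, 9.13, 8.97 and 8.81 in PBS/OVA. The OVA/OVA arrays ran from 8.51 through a median of 8.71 to 8.86. The OVA/OVA DEX arrays were 9.23, 9.06, 8.77 and 9.01. All OVA/OVA arrays lay below both PBS/PBS arrays, and they overlapped with PBS/OVA and with OVA/OVA DEX, where array 3 was low. Group means were 8.91 ± 0.0306 (n = 2), 8.94 ± 0.146 (n = 4), 8.70 ± 0.126 (n = 6) and 9.02 ± 0.187 (n = 4) in the same order.

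miR-199b-5p, the 5p arm of the hairpin in Dnm1, had log2 signals of 11.15 and 11.07 in PBS/PBS and of 11.11, 11.01, 11.27 and 11.05 in PBS/OVA. The OVA/OVA arrays ran from 10.72 through a median of 10.78 to 11.00. The OVA/OVA DEX arrays were 11.23, 11.23, 10.96 and 10.90. All OVA/OVA arrays lay below every array of both control groups, and OVA/OVA array 5 reached into the range of OVA/OVA DEX. Group means were 11.11 ± 0.0531 (n = 2), 11.11 ± 0.117 (n = 4), 10.81 ± 0.0999 (n = 6) and 11.08 ± 0.174 (n = 4).

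miR-214-3p, the 3p arm of the hairpin within Dnm3os, had log2 signals of 8.25 and 8.21 in PBS/PBS and of 8.11, 8.71, 8.34 and 8.32 in PBS/OVA. The OVA/OVA arrays ran from 7.94 through a median of 8.15 to 8.38. The OVA/OVA DEX arrays were 8.71, 8.45, 8.36 and 8.28. OVA/OVA overlapped with each of the other groups, and 5 of its 6 arrays lay below every OVA/OVA DEX array. Group means were 8.23 ± 0.0270 (n = 2), 8.37 ± 0.251 (n = 4), 8.17 ± 0.154 (n = 6) and 8.45 ± 0.188 (n = 4).

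**Figure D1:**
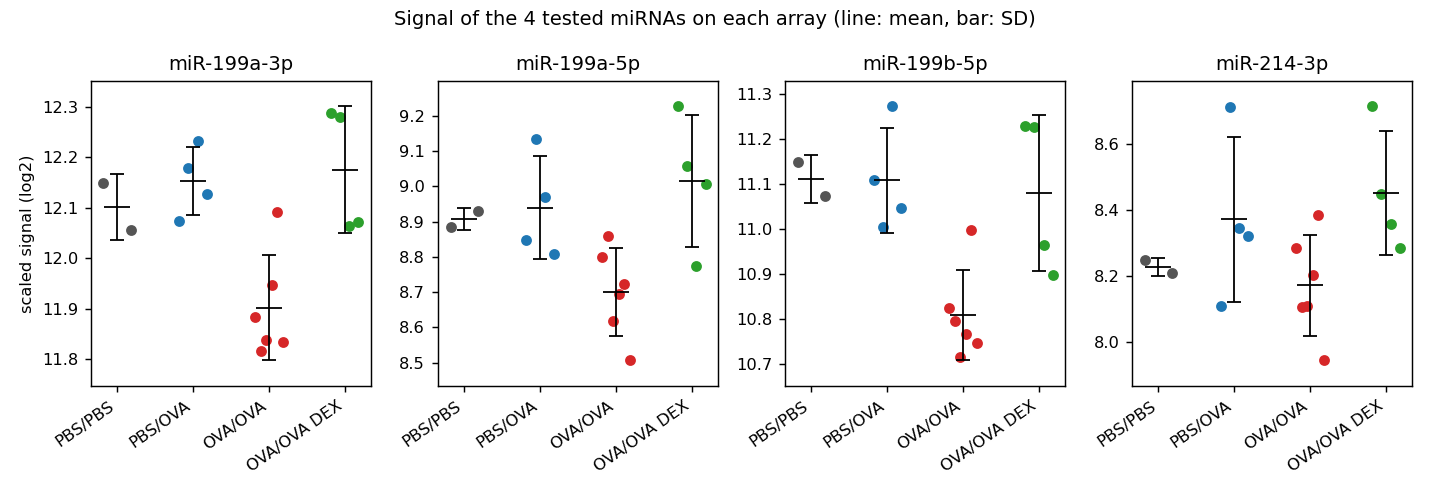
Scaled signal (log2) of miR-199a-3p, miR-199a-5p, miR-199b-5p and miR-214-3p on each of the 16 arrays by group, with 1 point per array, a line at the group mean and a bar for the SD. OVA/OVA has the lowest mean in each panel, and for miR-199b-5p its 6 arrays sit at or below 11.00, under both control groups.

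The mean of OVA/OVA was the lowest of the 4 groups for each of the 4 miRNAs. For miR-199a-3p, miR-199a-5p and miR-214-3p the means stood, from high to low, in the order OVA/OVA DEX, PBS/OVA, PBS/PBS, OVA/OVA, while for miR-199b-5p PBS/PBS and PBS/OVA were both at 11.11, above OVA/OVA DEX. None of the differences among those 3 groups passed the test for a member, as set out below. The plot of signal by array shows the range in each group beside these means.

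The comparison of OVA/OVA with OVA/OVA DEX asks what dexamethasone altered in allergic lungs. In it 3 members were lower in OVA/OVA, all by less than 2-fold, and miR-214-3p had a difference of similar size that missed the threshold. The test was limma on log2 signals of all 16 arrays, and a call was a Benjamini-Hochberg adjusted p under 0.05 over 266 miRNAs. miR-199a-3p fell by 0.27 on the log2 scale, to 0.827 of its OVA/OVA DEX level (SE 0.0716, 95% interval -0.43 to -0.12, limma adjusted p = 0.00722). miR-199a-5p fell by 0.32, to 0.803 of that level (SE 0.0956, interval -0.52 to -0.11, limma adjusted p = 0.0143). miR-199b-5p fell by 0.27, to 0.828 of that level (SE 0.0845, interval -0.45 to -0.090, limma adjusted p = 0.0155). The difference for miR-214-3p was -0.28 (SE 0.119, interval -0.54 to -0.023, limma adjusted p = 0.0629).

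These 3 calls among 4 members stood against 53.4% of the 266 miRNAs called in either direction and 32.3% called lower in OVA/OVA in the same comparison. The members' median difference was -0.28 and that of all 266 miRNAs was -0.088. The share of members called was thus read beside a comparison in which most tested miRNAs were called. For 0 of the 4 members did the arrays of the groups separate fully, against 16.5% of all miRNAs that lay lower without overlap.

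All 8 probes of the tested members had a lower mean in OVA/OVA, with differences from -0.42 to -0.15. The direction was also the same on each slide. On slide 1 the differences for miR-199a-3p, miR-199a-5p, miR-199b-5p and miR-214-3p were -0.33, -0.29, -0.25 and -0.30, with 2 arrays in each group. On slide 2 they were -0.24, -0.28, -0.29 and -0.24, with 4 OVA/OVA arrays and 2 OVA/OVA DEX arrays. The calls rested on few arrays. Without OVA/OVA DEX array 1, the highest for 3 of the members, miR-199a-3p was the member still called (-0.24, limma adjusted p = 0.0254), and miR-199a-5p and miR-199b-5p stood at adjusted p = 0.0517 and 0.0557, with differences of -0.25 and -0.22. Without OVA/OVA DEX array 2, miR-199b-5p was not called (-0.22, adjusted p = 0.0606), and miR-214-3p was called without PBS/OVA array 1 or 2, OVA/OVA array 5 or OVA/OVA DEX array 4, at adjusted p from 0.0299 to 0.0497 and differences from -0.33 to -0.28.

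Setting OVA/OVA against PBS/OVA asks what prior sensitisation altered in lungs challenged with the same allergen. It shares its 6 OVA/OVA arrays with the comparison above, so they are not independent. In this comparison 2 members were called, against 31.6% of all 266 miRNAs in either direction and 16.9% called lower. miR-199b-5p fell by 0.30, to 0.812 of its PBS/OVA level (SE 0.0845, interval -0.48 to -0.12, limma adjusted p = 0.0180). miR-199a-3p fell by 0.25, to 0.841 of its PBS/OVA level (SE 0.0716, interval -0.40 to -0.096, limma adjusted p = 0.0187).

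The other 2 members did not pass the test. The difference for miR-199a-5p was -0.24 (SE 0.0956, limma adjusted p = 0.0713) and that for miR-214-3p was -0.20 (SE 0.119, limma adjusted p = 0.210). With the slide as a block, miR-199a-5p also passed, at adjusted p = 0.0427. The median over the 4 members was -0.25 and that over all 266 miRNAs was -0.043.

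miR-199b-5p was the member with every OVA/OVA array below every PBS/OVA array, an arrangement that 9.02% of all tested miRNAs had in that direction. All 8 probes had a lower mean in OVA/OVA, with differences from -0.32 to -0.20. Differences on slide 1, in the order of members used above, were -0.36, -0.22, -0.33 and -0.33, and on slide 2 they were -0.17, -0.19, -0.27 and -0.054. Without PBS/OVA array 3, neither call was retained, at adjusted p = 0.0690 for miR-199a-3p (difference -0.22) and 0.0730 for miR-199b-5p (-0.25). Without the 2 dimmest arrays, an alternative chosen after seeing the data, the adjusted p-values were 0.0815 and 0.0806, and the differences were -0.22 and -0.26.

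Against PBS/PBS, the group given neither sensitisation nor challenge with OVA, no member of the family was called by limma in OVA/OVA, where 25.6% of all 266 miRNAs were called and 12.4% were called lower. The differences were -0.20 (SE 0.0906, adjusted p = 0.112) for miR-199a-3p, -0.21 (SE 0.121, adjusted p = 0.204) for miR-199a-5p, -0.30 (SE 0.107, adjusted p = 0.0509) for miR-199b-5p and -0.057 (SE 0.151, adjusted p = 0.800) for miR-214-3p. An unadjusted p under 0.05 was reached by 2 members, miR-199a-3p and miR-199b-5p, and by 110 of the 266 miRNAs. All 6 OVA/OVA arrays lay below both PBS/PBS arrays for 2 members, miR-199a-5p and miR-199b-5p, which was so for 25.6% of all miRNAs. PBS/PBS had 2 arrays, both on slide 1, where the differences were -0.25, -0.079, -0.30 and -0.033 in the same order of members. Leaving out OVA/OVA array 5 brought 2 members past the threshold, with miR-199a-3p at -0.24 and miR-199b-5p at -0.34, and leaving out PBS/OVA array 2, OVA/OVA DEX array 1 or OVA/OVA DEX array 4 brought miR-199b-5p past it, with its difference still -0.30.

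The remaining comparisons had no called member. Between OVA/OVA DEX and PBS/OVA the differences were 0.023 for miR-199a-3p, 0.076 for miR-199a-5p, -0.028 for miR-199b-5p and 0.080 for miR-214-3p, with limma adjusted p from 0.782 to 0.910, and 2.26% of all miRNAs were called. The 95% intervals of these differences ran from -0.15 to 0.19, -0.15 to 0.30, -0.23 to 0.17 and -0.20 to 0.36.

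Between OVA/OVA DEX and PBS/PBS the differences were 0.073, 0.11, -0.032 and 0.22 in that order, with limma adjusted p from 0.700 to 0.943, and 0% of all miRNAs were called. For miR-214-3p the lowest of the 4 OVA/OVA DEX arrays exceeded the higher PBS/PBS array, as it did for 18.8% of all miRNAs. Between PBS/OVA and PBS/PBS the differences were 0.050, 0.033, -0.0034 and 0.14, each with a limma adjusted p of 0.997, and 0.376% of all miRNAs were called. The number of members with an unadjusted p under 0.05 was 0 in each of these 3 comparisons, where 59, 19 and 12 of the 266 miRNAs reached it in the order described.

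**Figure D2:**
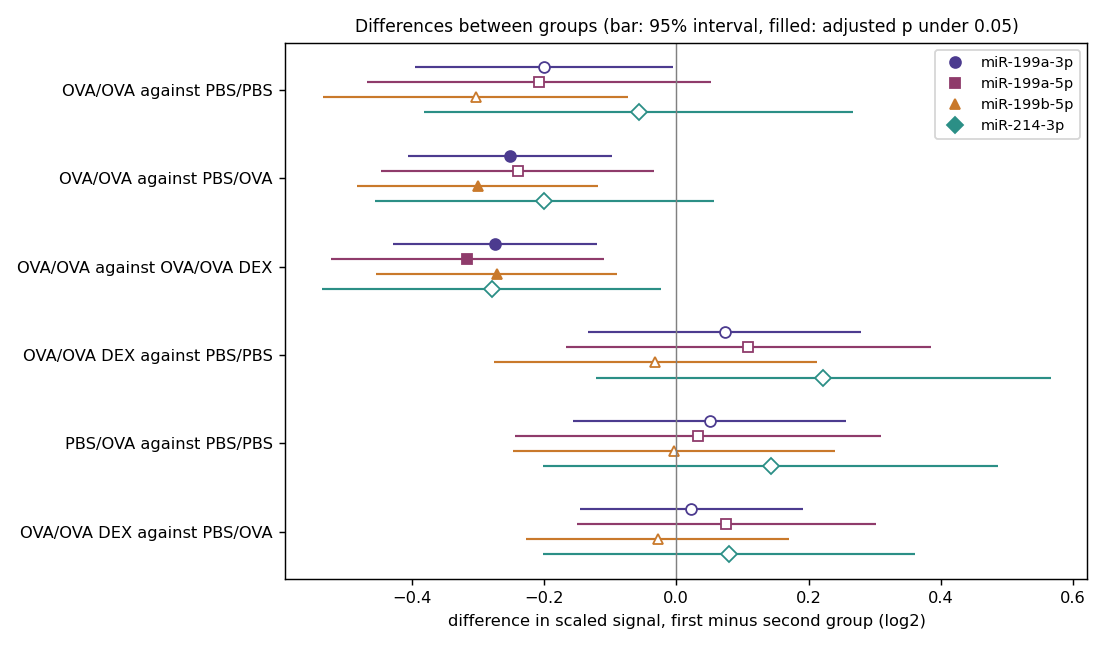
Difference in scaled signal (log2, first group minus second) of the 4 tested members in 6 comparisons, with bars for the 95% interval and filled symbols for a limma adjusted p under 0.05. Points lie left of 0 in the 3 comparisons that start with OVA/OVA, from -0.32 to -0.057, and on both sides of 0 in the others.

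The plot of differences with their intervals sets the comparisons side by side. The intervals of the members overlapped each other widely within every comparison, and the member with the greatest difference was not the same in all of them. miR-199a-5p had the greatest difference against OVA/OVA DEX, and miR-199b-5p had the greatest against both control groups.

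The way the arrays were scaled moved these values. With no scaling, the median difference of all 266 miRNAs was -0.56 for OVA/OVA minus PBS/OVA and -0.38 for OVA/OVA minus OVA/OVA DEX, and that of the members was -0.76 and -0.57, so the members' median minus that of all miRNAs was -0.21 and -0.19. With a percentile taken over all miRNAs it was -0.20 and -0.19. With quantile normalisation it was -0.094 and -0.076, and the difference of miR-199a-3p against OVA/OVA DEX turned to 0.065 (limma adjusted p = 0.456). With normexp background correction, run with an offset of 50, it was -0.49 and -0.37. There the median of all miRNAs was 0.30 and 0.16, and that of the members was -0.19 and -0.21. The number of members called against OVA/OVA DEX was 3 in the main setting, 1 with the percentile over all miRNAs, 0 with no scaling, 0 with quantile normalisation and 1 with normexp.

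**Figure D3:**
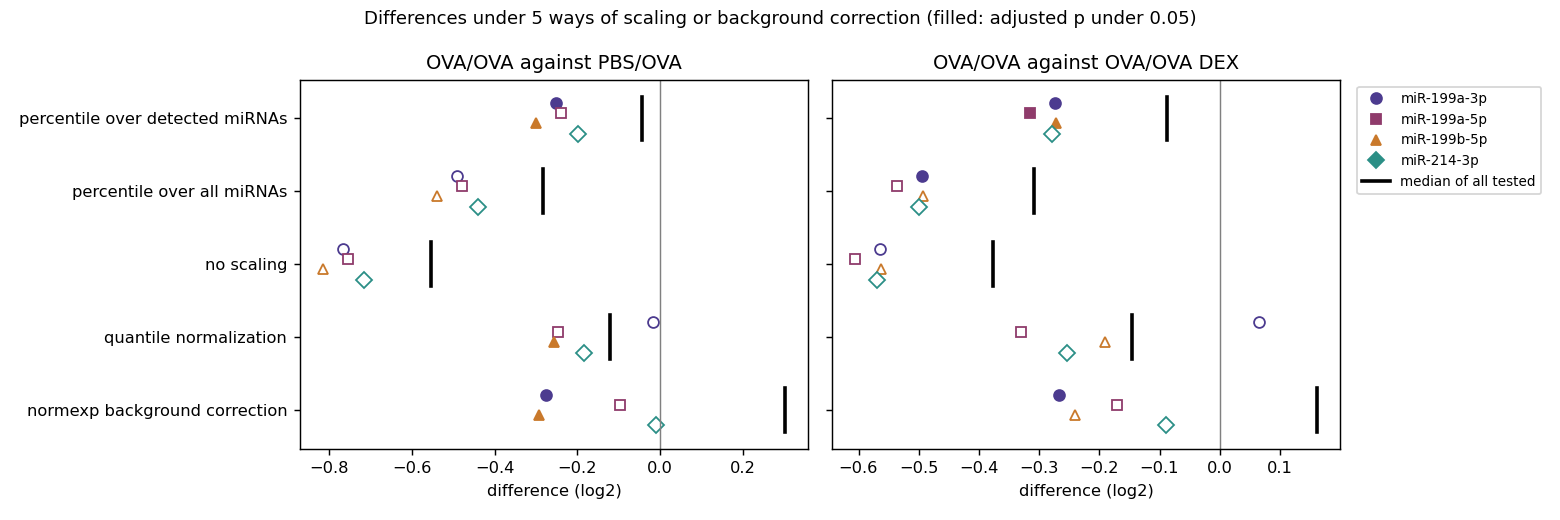
Difference (log2) of the 4 tested members between OVA/OVA and PBS/OVA (left) and between OVA/OVA and OVA/OVA DEX (right) under 5 ways of scaling or background correction, with a black bar for the median of all tested miRNAs and filled symbols for an adjusted p under 0.05. The members lie left of the black bar in all rows except the quantile row, where miR-199a-3p lies right of it in both panels, at -0.017 and 0.065.

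The plot of the 5 settings shows these values. A change of percentile, or no scaling, shifts nearly all miRNAs of an array alike, so the members' place beside the median is nearly fixed there by construction, and it was quantile normalisation and normexp that moved it. Before scaling, the signal of each member spanned 4.54-fold to 5.22-fold over the arrays, from OVA/OVA array 6 to PBS/PBS array 2. After scaling, the span was 1.39-fold for miR-199a-3p, 1.47-fold for miR-199b-5p, 1.65-fold for miR-199a-5p and 1.70-fold for miR-214-3p. The SD over the 16 arrays was between 0.155 and 0.205 on the log2 scale.

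The members were also compared with each other within arrays, where a constant for the array cancels. The difference between miR-199a-3p and miR-199b-5p, both of which the Mir199b hairpin can give, varied least, with an SD of 0.0714 over 16 arrays. The SD was 0.120 for miR-199a-3p and miR-199a-5p, which share the Mir199a-1 and Mir199a-2 hairpins. It was 0.133 for miR-199a-3p and miR-214-3p. It was highest, at 0.183, for miR-199b-5p and miR-214-3p. Every pair of members shares its RNA and its array, so these values describe the arrays and carry no test.

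Whether 1 member moved more than another, or more than a reference miRNA of another cell type, was tested with a two-sided exact permutation test over arrays. The references were miR-145-5p of smooth muscle, miR-29a-3p, which represses collagen genes, and miR-126-3p of endothelium. The 9 pairs and 3 comparisons gave 27 tests, and 0 passed the Benjamini-Hochberg threshold, with an adjusted p of 0.924 for each. The smallest exact p was 0.114, for miR-199a-3p minus miR-145-5p between OVA/OVA DEX and PBS/OVA, where the difference was -0.40. With these numbers of arrays the smallest p that the test could give was 0.00476 for 6 against 4 arrays and 0.0143 for 4 against 4. The pairs of members tested were miR-199a-3p with miR-199a-5p, miR-199a-5p with miR-199b-5p, and miR-199a-3p with miR-214-3p. Other pairs of members, such as miR-199b-5p with miR-214-3p, and comparisons with PBS/PBS were not tested. Differences between the members' changes were therefore not detected in the pairs tested, and the tests do not show that they were equal.

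Some arrays stood at the same end for all 4 members. OVA/OVA DEX arrays 1 and 2 were among the 4 highest of the 16 arrays for 4 of 4 members. OVA/OVA arrays 3, 4 and 6 were among the 6 lowest for 4 of 4 members. OVA/OVA array 5 was the highest of its group for miR-199a-3p, miR-199b-5p and miR-214-3p and lay within its group for miR-199a-5p.

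The miRNAs whose profile over the arrays was most like that of the family were found by the root mean square difference from the mean profile of the 4 members, after each miRNA was centred on its own mean. Over 16 arrays and 202 other miRNAs, they were miR-99a-5p (0.0785 log2 units), miR-365-3p (0.0796), miR-100-5p (0.0836), miR-152-3p (0.0924) and miR-218-5p (0.0945). The members themselves lay 0.0499 to 0.0970 from their own mean profile, and the median of the other miRNAs was 0.238. The SD of the members' mean profile was 0.164, so these distances were smaller than the movement of the profile itself. The references were farther away, at 0.135 for miR-126-3p, 0.148 for miR-29a-3p and 0.244 for miR-145-5p.

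**Figure D4:**
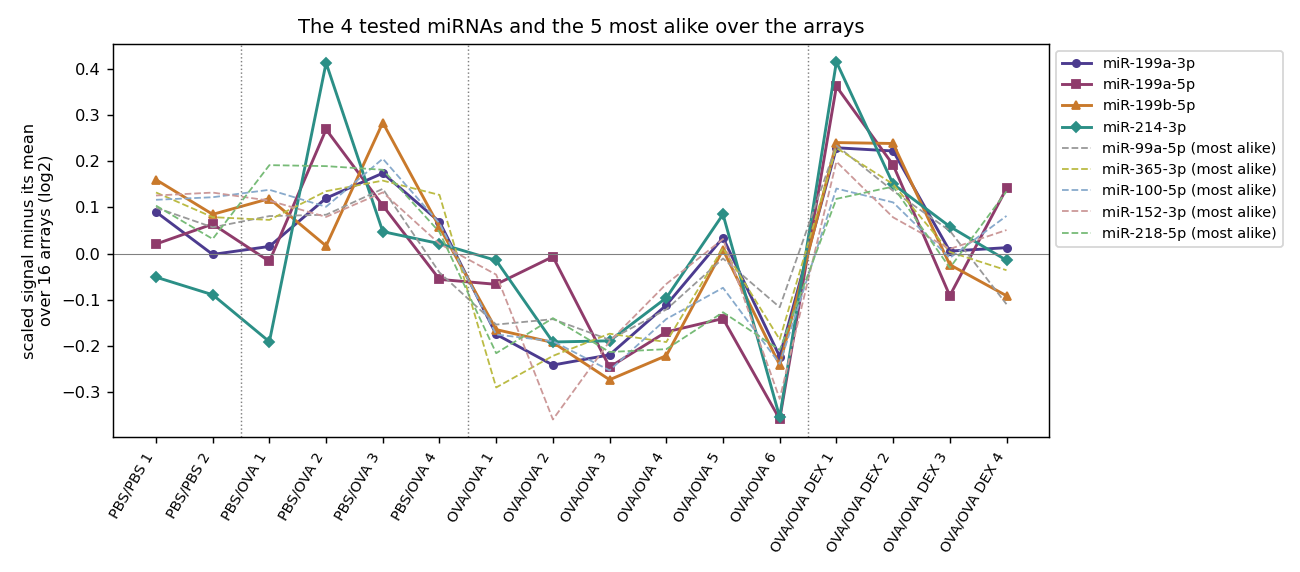
Scaled signal minus its own mean over 16 arrays (log2) for the 4 tested members (solid lines with symbols) and the 5 miRNAs with the most similar profile (dashed lines), with dotted lines between groups. The lines lie below 0 on the OVA/OVA arrays, except on array 5, where 5 of the 9 lie above it, and they are high at OVA/OVA DEX arrays 1 and 2.

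These 5 neighbours were chosen by that likeness, so their differences are given as values only. Against OVA/OVA DEX the difference was -0.20 for miR-99a-5p, -0.26 for miR-365-3p, -0.26 for miR-100-5p, -0.24 for miR-152-3p and -0.28 for miR-218-5p. Their likeness to the members in the plot of the centred profiles follows from that choice. On single arrays they could differ, as on PBS/OVA array 2, where the members ran from 0.017 to 0.41 and the neighbours from 0.079 to 0.19. miR-99a-5p, miR-100-5p and miR-152-3p were also on the list of mesenchymal miRNAs described next.

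Other miRNAs known from mesenchymal cells, among them miR-143 and miR-145 of smooth muscle and the miR-10, miR-99a, miR-100 and miR-125b genes, had 13 rows on the array and 12 tested, with no family member among them. This list and those below were chosen with earlier results of these data known, so their counts are no independent test. Of the 12, 11 were lower in OVA/OVA than in OVA/OVA DEX, 0 were higher and miR-22-3p was not called, and the median was -0.31, beside 32.3% of all 266 miRNAs called lower and an overall median of -0.088. Those with the smallest adjusted p were miR-10b-5p (-0.48, limma adjusted p = 0.000294), miR-10a-5p (-0.51, limma adjusted p = 0.000992), miR-100-5p (-0.26, limma adjusted p = 0.00153) and miR-10a-3p (-2.17, limma adjusted p = 0.00703). The value for miR-10a-3p was imprecise, with an SE of 0.560, where those named before it had an SE of 0.0532 to 0.0978. Against PBS/OVA, 5 of the 12 were lower and 0 higher, with a median of -0.24, beside 16.9% called lower and a median of -0.043 over all miRNAs. These were miR-100-5p (-0.31), miR-125b-5p (-0.28), miR-10b-5p (-0.27), miR-152-3p (-0.24) and miR-99a-5p (-0.19). Against PBS/PBS, 4 of the 12 were lower and 0 higher, with a median of -0.29, beside 12.4% called lower and a median of -0.021 over all miRNAs.

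miR-143-3p and miR-145-5p, which mark smooth muscle, differed from OVA/OVA DEX (-0.31 and -0.45) and not by a call from PBS/OVA, where the values were -0.055 and -0.029. The within-array test above included miR-145-5p against miR-199a-3p and against miR-214-3p, and did not separate them.

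miRNAs linked to tissue scarring had 18 rows on the array and 15 tested, and they did not run one way. Against OVA/OVA DEX, 10 were lower and 2 higher in OVA/OVA, beside 32.3% and 21.1% of all 266 miRNAs. The list median was -0.43 and the overall median -0.088. The higher ones were miR-155-5p (2.60, limma adjusted p = 1.65e-05) and miR-21-5p (1.45, limma adjusted p = 4.32e-05), both abundant in immune cells as well. The lower ones were led by miR-30a-5p (-0.55, limma adjusted p = 0.000513) and miR-29c-5p (-0.48, limma adjusted p = 0.000762). Against PBS/OVA, 2 were higher, again miR-155-5p (1.87) and miR-21-5p (0.92), and 2 were lower, miR-29c-5p (-0.30) and miR-133a-3p (-0.84). Over all 266 miRNAs, 14.7% were called higher and 16.9% lower there, and the medians were -0.14 for the list and -0.043 for all. Against PBS/PBS, 2 were higher and 1 was lower, beside 13.2% called higher and 12.4% called lower over all miRNAs. The medians there were -0.16 for the list and -0.021 for all.

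Markers of other cell types moved with the groups too. Of 6 tested haematopoietic miRNAs, such as miR-142, miR-223 and miR-342, 5 were higher in OVA/OVA than in OVA/OVA DEX, 6 were higher than in PBS/OVA and 4 were higher than in PBS/PBS. Over all 266 miRNAs, 21.1%, 14.7% and 13.2% were called higher in these comparisons. Their summed scaled signal was 32862 to 48310 in OVA/OVA, 18413 to 27148 in OVA/OVA DEX, 16273 to 24192 in PBS/OVA and 20865 to 23470 in PBS/PBS, and miR-150-3p was detected on no array. The erythroid miR-451 and miR-144-3p were lower in OVA/OVA than in OVA/OVA DEX, with log2 differences of -1.04 and -1.06. Neither was called against PBS/OVA or PBS/PBS. Their summed signal was 36986 to 70438 in OVA/OVA, 47860 to 87243 in PBS/OVA and 72736 to 79413 in PBS/PBS. It was 100092 to 136112 in OVA/OVA DEX, above all other groups. Both endothelial arms of miR-126 were lower in OVA/OVA than in OVA/OVA DEX and PBS/OVA, with a median of -0.59 and -0.39. The difference was -0.30 and -0.24 for miR-126-3p, near the members' medians of -0.28 and -0.25, and -0.88 and -0.54 for miR-126-5p. Over all 266 miRNAs, 32.3% and 16.9% were called lower in these comparisons. The part of these cell types in the values of the miR-199 and miR-214 family was not tested.

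**Figure D5:**
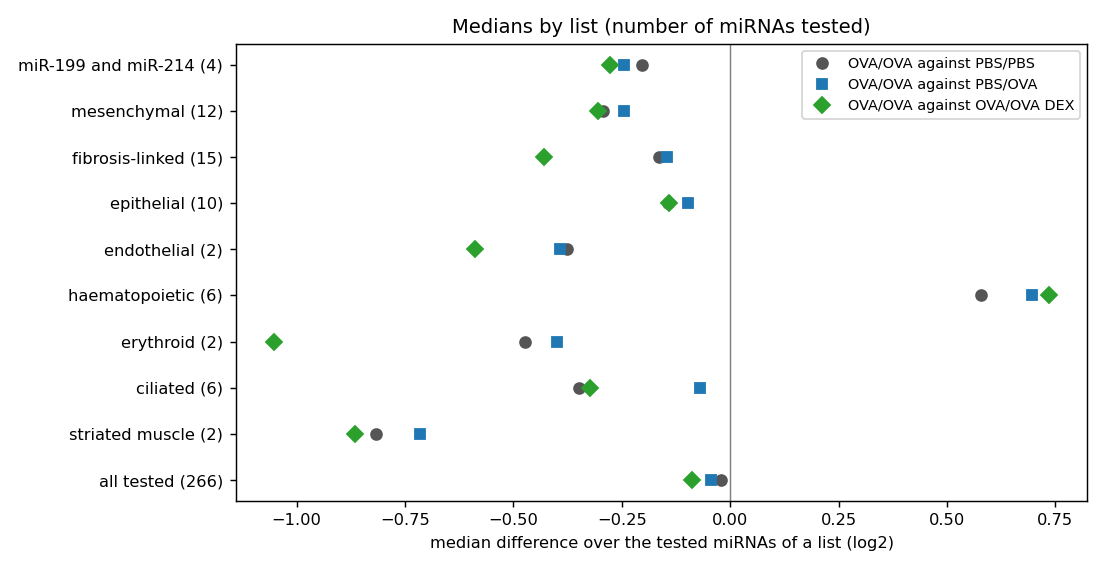
Median difference (log2) over the tested miRNAs of each list for OVA/OVA against PBS/PBS (circles), PBS/OVA (squares) and OVA/OVA DEX (diamonds), with the number of miRNAs tested in brackets. The family lies at -0.20 to -0.28, near the mesenchymal list. Endothelial miR-126-3p alone, not drawn, was at -0.22 to -0.30. The haematopoietic list lies above 0, at 0.58 to 0.73.

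The plot of list medians sets the family beside these groups. Against OVA/OVA DEX, 2 epithelial miRNAs of the miR-200 family and their like were called higher, 3 lower and 5 not called among 10 tested. Their median was -0.14. Over all 266 miRNAs, 21.1% were called higher and 32.3% lower in that comparison, with a median of -0.088. For ciliated cell miRNAs the counts were 2 higher, 3 lower and 1 not called of 6. The 2 tested miRNAs of striated muscle were both lower in OVA/OVA than in OVA/OVA DEX, with a median of -0.86.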

How the data were processed

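Whole-lung total RNA had been labelled and hybridised to Agilent mouse miRNA arrays (release 12.0). The authors scanned them and extracted spot intensity values with Feature Extraction software 10.7.3.1, and the deposited intensity columns are background-corrected signals not scaled between arrays. A deposited table of the authors' processed log2 values was used as an alternative, with its scale matched to the scanner values within 0.15 for 169 miRNAs, 4 of the 5 members among them. Its exact centring is not given in the sources used here.

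Control and outlier-flagged spots were left out. Spot averages were taken for each probe and added up over the probes of a miRNA. Arrays were scaled on the 75th percentile of the 206 miRNAs detected on all 16 arrays, a floor of 1.71 was applied, and values were log2 transformed. Groups came from the sample labels. For 266 miRNAs with a detected signal on all arrays of some group, limma 3.58.1 (R 4.3.3) was fitted to all 16 arrays, with Benjamini-Hochberg adjustment over the 266 in each of 6 comparisons. A call was an adjusted p under 0.05. Differences within arrays were tested by exact permutation. The script was tested on simulated data. The number of arrays limits the precision.

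The rule for naming took every member, the 5 miRNAs with the nearest profile, miR-145-5p, miR-29a-3p and miR-126-3p as references, and up to 4 of the mesenchymal and scarring lists with the smallest adjusted p in the comparison described. Members and lists were chosen with earlier results of these data known. Other miRNAs named were chosen after their values were seen. Alternatives covered the percentile, no scaling, quantile and normexp normalisation, probe summary, detection filter, floor, slide and replicate blocks, variance trend, the processed table, an exact Mann-Whitney test and leaving out each array. The methods describe an OVA challenge for all mice, and the PBS/PBS labels give PBS, which was followed.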

Additional observations from a re-analysis of the deposited data

Results flagged for a closer look

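A sample far from the rest of its group by Dixon's criterion was seen in 5 of 42 groups of values examined, where chance gives about 1 in 20 for values without ties. Of the 5, 3 were for miR-214-5p, where most arrays were tied at the floor of 0.77. A single array above the floor, as in PBS/OVA and OVA/OVA DEX, then meets the criterion by construction. In OVA/OVA, array 5 was also above the floor, at 1.10. Its highest arrays were PBS/OVA array 2 at a log2 signal of 1.27, OVA/OVA array 4 at 3.69 and OVA/OVA DEX array 3 at 2.87. OVA/OVA array 4 was the 1 of these 3 arrays on which the miRNA was called detected, and it was also the array with the most miRNAs detected, 301. The within-array difference of miR-199a-5p minus miR-199b-5p was highest in PBS/OVA array 2, at -1.87. The within-array difference of miR-199a-3p minus miR-145-5p was lowest among OVA/OVA arrays in array 2, at 5.12.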

How the results depend on the processing

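The number of members called depended on the processing in the 3 comparisons that start with OVA/OVA, and it was 0 in every setting of the other 3 and of the within-array tests. Against PBS/PBS it was 0, and became 3 with the percentile over all miRNAs, 4 with no scaling, 2 with normexp, and 1 each with the mean over probes, with detection on all 16 arrays required and with a variance trend. Against PBS/OVA it was 2, and became 0 with the percentile over all miRNAs, no scaling, array brightness as a covariate, without the 2 dimmest arrays, or with a 2-fold minimum, and 1 with quantile normalisation or an exact Mann-Whitney test. Against OVA/OVA DEX it was 3, and became 1 with the percentile over all miRNAs, normexp or without the 2 dimmest arrays, and 0 with no scaling, quantile normalisation, the exact Mann-Whitney test or a 2-fold minimum. Leaving out each array in turn gave 0 to 2, 0 to 2 and 1 to 4 calls in these comparisons. The brightness covariate and the loss of the dimmest arrays were chosen after seeing the data. The causes of these changes were not tested.

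The calls over all 266 miRNAs moved too. Against PBS/PBS, 35 were higher and 33 lower in OVA/OVA, and this became 12 and 125 with the percentile over all miRNAs, 3 and 156 with no scaling, 15 and 41 with quantile normalisation and 143 and 21 with normexp. Against PBS/OVA, 39 higher and 45 lower became 9 and 12, 0 and 2, 22 and 40, and 26 and 12 in that order. Against OVA/OVA DEX, 56 higher and 86 lower became 27 and 80, 13 and 10, 34 and 56, and 27 and 32. With array brightness as a covariate 12, 53 and 131 miRNAs were called in the 3 comparisons, without the 2 dimmest arrays 40, 50 and 114, with the deposited processed values 37, 51 and 89, and by the exact Mann-Whitney test 0, 53 and 114. That test could make no call against PBS/PBS, since 6 against 2 arrays give no two-sided exact p under 0.0714. Leaving out each array gave 12 to 96, 48 to 103 and 121 to 156.

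The 3 members called against OVA/OVA DEX kept a negative difference in every setting except that miR-199a-3p became 0.065 with quantile normalisation, which also took its difference from PBS/PBS to 0.037. All other changes of sign were in differences that were not called. For miR-214-3p against PBS/PBS they were 0.19 with normexp, 0.035 with the slide as a block, 0.010 with the replicate block, 0.033 with the brightness covariate and 0.016 without the 2 dimmest arrays. Between OVA/OVA DEX and PBS/PBS, the percentile over all miRNAs gave -0.24 for miR-199a-3p, -0.21 for miR-199a-5p and -0.092 for miR-214-3p, no scaling gave -0.73, -0.70 and -0.58, and quantile normalisation gave -0.028 for miR-199a-3p. miR-199b-5p there was 0.012 with the replicate block, 0.020 with the brightness covariate and -0.082 to 0.029 with an array left out. Between PBS/OVA and PBS/PBS, the percentile over all miRNAs gave -0.24, -0.26 and -0.15 for miR-199a-3p, miR-199a-5p and miR-214-3p, and no scaling gave -0.53, -0.55 and -0.44. miR-199a-5p there was -0.031 with quantile normalisation and -0.032 to 0.076 with an array left out, and miR-199b-5p was 0.0017 with the slide as a block, 0.040 with the replicate block, 0.041 with the brightness covariate and -0.058 to 0.034 with an array left out. Between OVA/OVA DEX and PBS/OVA, no scaling gave -0.20, -0.15 and -0.15 for miR-199a-3p, miR-199a-5p and miR-214-3p, and miR-199a-3p was -0.082 with quantile normalisation, -0.0093 with normexp and -0.00032 with the mean over probes. With an array left out, miR-199a-3p was -0.014 to 0.060 there, miR-199b-5p -0.078 to 0.032 and miR-214-3p -0.0083 to 0.19.

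The replicate numbers did not pair the arrays. Of 18 same-numbered pairs, 3 had correlated deviations over 0.1 (range -0.78 to 0.41), and 0 of 14 arrays correlated best with their own number. With the replicate block the members called were still 2 in the comparison with PBS/OVA and 3 in that with OVA/OVA DEX, where miR-199a-3p was -0.30 (limma adjusted p = 0.0156). Signal over background limited miR-214-5p alone among the members, and the 2 arrays of PBS/PBS, both on slide 1, limited every comparison with that group.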
